A study of Rattus norvegicus with 26 samples.

Results

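Tropomyosin genes Tpm1, Tpm2, Tpm3 and Tpm4, the calponins Cnn2 and Cnn3 and the transgelin gene Tagln2 were followed in rat multipotent adult progenitor cells (rMAPCs) during differentiation towards smooth muscle. The 7 genes were chosen by name, and a probe was taken as theirs when its gene name in the array files equalled the symbol. Of the 7 genes, 6 had a gene probe, of 35287 gene names on the array, with 17 of 41012 gene probes. No gene probe carried the name Cnn2, so h2-calponin has no value here. The data are 26 one-colour Agilent rat arrays. The lines Cl19 (clone name Cl-19, bone marrow of a Fischer female aged 3 weeks) and 3c3 (Fischer female, bone marrow, embryonic day 18) are Oct4-expressing clones, each a single clone. Both were grown in basal rMAPC medium with TGFβ1 and PDGF-BB and sampled on day 0 (d0), d2, d4 and d6, with 3 arrays per line and day. The group Prim is 2 arrays of purchased RNA, which the labels call rat aortic and the methods of the study call primary smooth muscle cell RNA, with no genotype, age or treatment given. The labels number the Prim arrays as replicates 1 and 2 and do not say whether they are 1 RNA, which they may be. Nothing in the labels says that the 3 replicates of a line were separate cultures, while the supporting methods of the study call them biological replicates. The p-values measure the spread between these arrays, and how far that spread is technical is not known here.

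Tropomyosins are coiled-coil dimers that lie end to end along the actin filament and govern which partners reach it. Each of the 4 genes yields several proteins through alternative promoters and splicing. Tpm1 (alpha) and Tpm2 (beta) give the tropomyosins of muscle filaments as well as non-muscle forms. Tpm3 gives slow skeletal and many non-muscle forms, and Tpm4 is chiefly non-muscle in rodents. Calponins bind actin and tropomyosin: Cnn1 marks differentiated smooth muscle, whereas Cnn2 and Cnn3 occur in many cell types. Tagln2 is the widely expressed relative of Tagln (SM22α), an early marker of the smooth muscle lineage.

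The probes are short stretches of these transcripts, and several of them report different parts of 1 gene. The brightest probe of each gene, by mean log2 signal over the 26 arrays, stands for the gene in the tests. Its place in the rat build rn4, as the array files give it, was chr8:71331669-71331728 for Tpm1, chr5:59994138-59994197 for Tpm2, chr2:182323959-182324018 for Tpm3, chr16:18108915-18108974 for Tpm4, chr2:218075603-218075662 for Cnn3 and chr13:88511419-88511478 for Tagln2. Tpm1, Tpm2 and Tpm4 lay on the minus strand and the others on the plus strand. Exon and UTR annotation of rn4 was not used here. The sequences are shown so that the probes whose results differ can be told apart. Sequences of 30 bases are the first part of a 60-base probe that may lie in an untranslated region.
Tpm1 A_44_P134213, brightest: gatgttggagacaatcaggtgcagattggt
Tpm1 A_44_P475051: ccagcacagaccgtgctttctattgtacag
Tpm2 A_42_P566079, brightest: ccttctggaactcaacaacctgtaagggct
Tpm3 A_44_P346661, brightest: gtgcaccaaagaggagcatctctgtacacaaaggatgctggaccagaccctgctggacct
Tpm3 A_44_P121177: agcccccttcaagttgcaatggctatttct
Tpm3 A_44_P513058: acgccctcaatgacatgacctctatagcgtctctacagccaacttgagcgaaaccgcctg
Tpm4 A_43_P11514, its probe: tcttataagaagttccgcttactaccatgt
Cnn3 A_44_P1029956, its probe: taagtgtggtctttgccaagtaatctaaca
Tagln2 A_44_P248133, its probe: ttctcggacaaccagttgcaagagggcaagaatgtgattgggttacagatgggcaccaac

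The tropomyosin genes are close relatives, and a pair of probe pairs reads the same stretch of different genes. In these 4 sequences capitals mark the bases that are identical when each pair is aligned. The Tpm1 and Tpm3 probes shared 28 of 41 aligned bases (68.3%), and the Tpm1 and Tpm2 probes shared 27 of 35 (77.1%). Signal from the related transcript was not measured separately.
Tpm1 A_44_P320617: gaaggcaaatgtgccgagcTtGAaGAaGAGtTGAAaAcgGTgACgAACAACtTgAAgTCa
Tpm3 A_44_P219839: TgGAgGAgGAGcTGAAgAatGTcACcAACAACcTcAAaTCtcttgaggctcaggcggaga
Tpm1 A_44_P320620: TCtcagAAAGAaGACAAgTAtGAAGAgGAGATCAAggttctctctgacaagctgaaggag
Tpm2 A_44_P1042783: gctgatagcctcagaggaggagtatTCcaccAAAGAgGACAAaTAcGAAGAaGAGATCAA

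All 17 probes entered the test, 16 of them well above background on all 26 arrays and A_44_P219839 on 25. Each line slide held the 4 days of 1 replicate in 1 order, so day and slide position cannot be told apart, and neither can line, Prim and scan day. The slide of 3c3 replicate 3 had the highest negative control signal (9.13 to 20.9, against at most 5 on other arrays). The array labelled Cl19 d2 replicate 1 lay closer to the 3c3 d2 arrays (root mean square log2 difference 0.382 to 0.537) than to its own group (0.876 and 0.917). Changes of the brightest probes at d2 in Cl19 are given with and without it. The smooth muscle markers (5 of 6 with a probe, Myh11 having none) were above background on every array. Their summed signal (log2) went from 10.9 to 11.1 at d0 to 15.9 to 16.2 at d6 in Cl19, from 10.5 to 10.7 to 14.8 to 15.5 in 3c3, and was 16.6 in Prim. At d6 and in Prim, Tagln made up most of that sum (15.85 in Cl19, 14.78 in 3c3, 16.27 in Prim). Smtn came next in Cl19 and 3c3 (12.56 and 11.89) and in Prim (13.51). Actg2 was at 4.76 and 6.81 at d6 against 12.00 in Prim, and Des at 7.82 and 7.50 against 6.57. Markers of other cells moved too. The summed cardiac list, with Nppa at background at d0, went from 10.12 to 10.24 at d0 to 12.36 to 13.93 at d6 in Cl19. In 3c3 it went from 8.85 to 9.36 up to 11.23 to 12.58. Within it, Tnnt2 rose from 9.96 to 12.98 (Cl19) and from 8.41 to 9.82 (3c3). Nppa reached 10.22 and 11.07, and Nkx2-5 rose from below background to 7.49 and 3.43. Myh6 (6.52 to 5.74) and Tnni3 (5.70 to 5.20) fell in Cl19. In 3c3 they went from 7.07 to 7.26 and from 5.66 to 5.76. Myh7 went from 2.63 to 2.77 (Cl19) and from 1.87 to 3.20 (3c3). The fibroblast list moved apart in the lines as a sum. It went from 12.28 to 12.42 at d0 to 13.23 to 13.90 at d6 in Cl19. In 3c3 it went from 12.15 to 12.35 down to 10.59 to 11.73. Within the list, Pdgfra fell in both lines, from 12.34 to 10.41 (Cl19) and from 12.25 to 10.48 (3c3). Col1a1 rose in both, from 6.00 to 13.26 and from 6.01 to 9.53. Lum (to 7.67) and Dcn (to 2.97) rose from below background in Cl19 alone. The epithelial list went from 17.0 to 17.1 at d0 to 17.7 to 18.0 at d6 over both lines. Krt18 made up most of that sum, going from 16.97 to 17.49 (Cl19) and from 17.00 to 17.38 (3c3). The other genes rose more. Cdh1 went from 10.30 to 13.58 and from 9.47 to 13.49, and Krt8 from 12.73 to 15.68 and from 12.42 to 14.63. Krt19 went from 10.67 to 11.73 (Cl19) and from 10.05 to 14.27 (3c3). The undifferentiated and primitive endoderm list went from 15.3 to 15.4 at d0 to 14.1 to 14.7 at d6 in Cl19. In 3c3 it went from 15.4 to 15.5 to 15.0 to 15.1. Foxa2 rose, from 13.27 to 13.93 (Cl19) and from 13.39 to 13.88 (3c3), as did Dab2 in 3c3. The other genes of the list fell, Pou5f1 (Oct4) from 10.28 to 1.13 and from 11.53 to 7.42. At d6 in Cl19, Pou5f1 was well above background on 1 of 3 arrays. The part of these lists in the results below was not tested.

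From d0 to d6 the signal of Tpm1, Tpm2 and Tpm4 rose in both lines and that of Cnn3 in Cl19, and that of Tpm3 fell in 3c3. Tpm2 rose by 5.81 on the log2 scale in Cl19 and 5.93 in 3c3 from d0 to d6, and Tpm1 by 3.37 and 3.14. Changes of Tagln2 did not pass the test in either line. In Cl19, 4 of 6 measured genes were called higher at d6 than at d0 (limma, adjusted p below 0.05) and none lower, where 22.0% of all 24442 tested probes were called higher and 30.3% lower. In 3c3, 3 genes were called higher and 1 lower, against 19.7% and 28.6% of all probes. On the unscaled deposited values the split over all probes turned (6771 higher and 5396 lower in Cl19, against 5371 and 7394 here; 6167 and 4758 in 3c3, against 4803 and 6989), and their median moved to 0.10 and 0.09. The median change of the 6 genes was 1.15 in Cl19 and 0.47 in 3c3, beside medians of -0.20 and -0.21 over all tested probes. In bulk RNA, fewer cells of a type and less RNA per cell cannot be told apart.

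Tpm2, the beta-tropomyosin gene, had the widest range over the days. In Cl19 its log2 signal was 9.75, 9.58 and 9.94 at d0, 10.89, 13.05 and 13.40 at d2, 14.90, 15.66 and 15.73 at d4 and 15.64, 15.90 and 15.15 at d6. In 3c3 it was 9.33, 8.003 and 8.29 at d0, 10.71, 10.81 and 11.16 at d2, 13.87, 13.05 and 13.70 at d4 and 15.49, 13.71 and 14.23 at d6. The d0, d2 and d4 arrays did not overlap in either line, whereas d4 and d6 did. The d6 change was 5.81 ± 0.52 (SE; 56.1-fold, adjusted p = 2.15e-08, limma) in Cl19. It was 5.93 ± 0.52 (61.1-fold, adjusted p = 3.10e-08, limma) in 3c3. Between d2 and d0 the limma change was 2.69 (adjusted p = 7.76e-04) in Cl19 and 2.35 (adjusted p = 0.00302) in 3c3. Between d4 and d2 it was 2.98 (adjusted p = 5.37e-04, limma) and 2.65 (adjusted p = 0.00412, limma). From d4 to d6 the changes of 0.14 and 0.94 did not pass (95% intervals -0.95 to 1.22 and -0.15 to 2.02).

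Tpm1, the alpha-tropomyosin gene, followed the same course with a smaller range. Its log2 signal in Cl19 was 11.70, 11.88 and 11.62 at d0, 13.15, 14.54 and 13.88 at d2, 14.74, 15.12 and 14.82 at d4 and 15.06, 15.45 and 14.79 at d6. In 3c3 it was 11.62, 12.03 and 11.62 at d0, 12.86, 13.44 and 13.08 at d2, 14.06, 14.30 and 14.16 at d4 and 14.92, 15.14 and 14.64 at d6. In Cl19 the first 3 time points did not overlap and d4 overlapped d6, whereas in 3c3 all 4 days lay apart. From d0 to d6 Tpm1 rose 10.3-fold in Cl19 (3.37 ± 0.26, adjusted p = 3.04e-09, limma) and 8.83-fold in 3c3 (3.14 ± 0.26, adjusted p = 1.47e-08, limma). The steps from d0 to d2 (2.13 in Cl19 and 1.37 in 3c3) and from d2 to d4 (1.04 and 1.05) passed the test, with the highest adjusted p at 0.0169 (limma). The 3c3 step from d2 to d4 lost its call without 3c3 d2 replicate 1 (adjusted p = 0.0935, limma), 3c3 d2 replicate 3 (0.0562), 3c3 d4 replicate 2 (0.0704) or 3c3 d4 replicate 3 (0.0563). From d4 to d6 the 3c3 change of 0.73 missed it (adjusted p = 0.0803, limma) but passed with the slide as a replicate block (adjusted p = 0.0120, limma).

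The rises of Tpm1 and Tpm2 did not differ between the lines beyond the spread. Cl19 minus 3c3 was 0.23 for Tpm1 (95% interval -0.54 to 1.00) and -0.12 for Tpm2 (-1.66 to 1.41). Across 17 alternative settings in Cl19 and 18 in 3c3, every one kept the d6 rise of both genes past the threshold, at no less than 2.73 for Tpm1 and 5.43 for Tpm2.

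**Figure D1:**
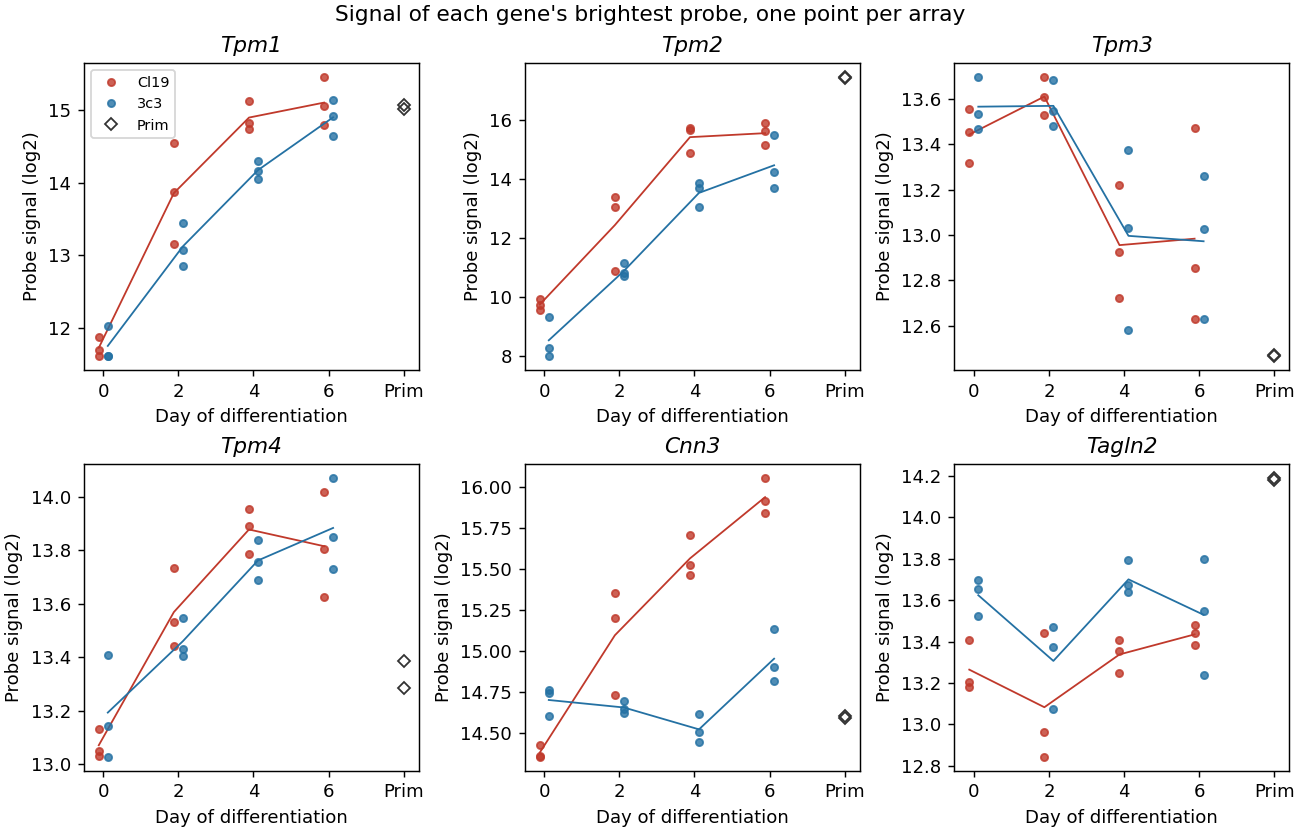
Log2 signal (y axis) of the brightest probe of 6 genes by day (x axis), 1 point per array, lines through the means of 3 arrays, with the 2 Prim arrays at the right; each panel has its own y range. Tpm1 and Tpm2 climb over the days in both lines, Cnn3 climbs in Cl19 to between 15.84 and 16.06 while 3c3 reaches at most 15.14; Prim positions hold for quantile scaling only, since Tpm1, Tpm3, Tpm4, Cnn3 and Tagln2 change sides of the d6 cells of at least 1 line under another scaling.

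Tpm4, a non-muscle tropomyosin, rose less. Its log2 signal was 13.05, 13.13 and 13.03 at d0 and 13.80, 13.62 and 14.02 at d6 in Cl19. In 3c3 it was 13.41, 13.03 and 13.14 at d0 and 14.07, 13.73 and 13.85 at d6. No d6 array overlapped the d0 arrays of its line. The change was 0.74 ± 0.13 in Cl19 (1.67-fold, adjusted p = 7.62e-05, limma) and 0.69 ± 0.13 in 3c3 (1.61-fold, adjusted p = 2.20e-04, limma). Scaled to the 75th percentile of each array, the changes were 0.38 (adjusted p = 0.0622, limma) and 0.30 (adjusted p = 0.153, limma), which did not pass. The difference between the lines was 0.05 (95% interval -0.33 to 0.44). In Cl19 the step from d0 to d2 passed (0.50, adjusted p = 0.00859, limma), but not with 75th percentile scaling (0.26, adjusted p = 0.295) or without Cl19 d2 replicate 2 (0.0562), and in 3c3 it was 0.27 (adjusted p = 0.176, limma).

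Tpm3, source of slow skeletal and non-muscle tropomyosins, had its lower signals late. In Cl19 the log2 signal was 13.56, 13.32 and 13.45 at d0, 13.61, 13.53 and 13.69 at d2, 12.72, 13.22 and 12.92 at d4 and 12.85, 12.63 and 13.47 at d6. In 3c3 it was 13.53, 13.46 and 13.70 at d0, 13.54, 13.48 and 13.68 at d2, 13.38, 12.58 and 13.03 at d4 and 13.26, 12.63 and 13.03 at d6. At d6 the 3c3 arrays lay below those of d0, while 1 Cl19 array lay among its d0 arrays. From d0 to d6 Tpm3 fell by 0.59 in 3c3 (SE 0.21, adjusted p = 0.0265, limma). That call was lost without 3c3 d0 replicate 1 (adjusted p = 0.0519, limma), 3c3 d0 replicate 3 (0.0865), 3c3 d6 replicate 2 (0.142) or the slide of 3c3 replicate 3 (0.143). In Cl19 the change was -0.46 (adjusted p = 0.0776, limma). It passed with 75th percentile scaling (-0.84, adjusted p = 0.00836, limma), with probe means (-0.65, 0.0157), with the slide as a replicate block (0.0399) and without Cl19 d6 replicate 3 (-0.70, adjusted p = 0.00850, limma). Between d2 and d4 Tpm3 fell by 0.65 in Cl19 (adjusted p = 0.0347, limma), a call lost without any 1 of 5 of the 6 arrays, Cl19 d4 replicate 2 being the exception (adjusted p from 0.0524 to 0.129, limma). In 3c3 that step was -0.57 (adjusted p = 0.0989, limma), and it passed with the block (adjusted p = 0.0408, limma) or without 3c3 d4 replicate 1 (0.0297).

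Cnn3, the acidic calponin, was the 1 measured gene whose change differed between the lines. In Cl19 its log2 signal was 14.35, 14.36 and 14.42 at d0, 14.73, 15.35 and 15.20 at d2, 15.46, 15.52 and 15.71 at d4 and 15.92, 16.06 and 15.84 at d6. In 3c3 it was 14.76, 14.60 and 14.74 at d0, 14.70, 14.62 and 14.65 at d2, 14.45, 14.61 and 14.50 at d4 and 15.14, 14.82 and 14.90 at d6. The Cl19 arrays of successive days did not overlap, and in 3c3 those of d0 and d2 did. In Cl19 Cnn3 rose 2.95-fold by d6 (1.56 ± 0.14, adjusted p = 1.64e-08, limma). In 3c3 the change was 0.25 ± 0.14 (adjusted p = 0.138, limma; 95% interval -0.03 to 0.54), and -0.19 under 75th percentile scaling. The difference between the lines was 1.31 ± 0.19 (adjusted p = 7.76e-05, limma), in a comparison where 8.17% of all tested probes changed upwards in Cl19 relative to 3c3 and 9.27% downwards. It stayed past the threshold in all 21 alternatives, between 1.24 and 1.40. The summed fibroblast marker signal was also higher on every d6 than d0 array in Cl19 and lower on every one in 3c3. Its genes Pdgfra (lower at d6) and Col1a1 (higher at d6) moved the same way in both lines. Markers from other lists also ended apart at d6. Pou5f1 was at 1.13 in Cl19 and 7.42 in 3c3, and Nkx2-5 at 7.49 and 3.43. The part of these markers in the Cnn3 difference was not tested. The 3c3 step from d4 to d6 (0.43, adjusted p = 0.0491, limma) was lost when any 1 of its 6 arrays was left out.

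Tagln2, the widely expressed transgelin, moved least. Its log2 signal was 13.41, 13.20 and 13.18 at d0 and 13.44, 13.38 and 13.48 at d6 in Cl19. In 3c3 it was 13.52, 13.65 and 13.70 at d0 and 13.24, 13.55 and 13.80 at d6. The d0 and d6 arrays overlapped in both lines. In 3c3 the d2 arrays (13.07 to 13.47) lay below those of d0 and d4, at changes of -0.32 and 0.39 that did not pass (adjusted p = 0.181 and 0.123, limma). From d0 to d6 the change was 0.17 in Cl19 (adjusted p = 0.386, limma; 95% interval -0.16 to 0.50) and -0.09 in 3c3 (adjusted p = 0.653, limma; -0.42 to 0.23). Under 75th percentile scaling these were -0.17 and -0.45 (adjusted p = 0.461 and 0.0524, limma).

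From d0 to d2, 4 genes were called higher in Cl19 (Tpm1, Tpm2, Tpm4 and Cnn3), where 11.2% of all probes were called higher and 11.5% lower. In 3c3, 2 were (Tpm1 and Tpm2), where 9.80% were called higher and 9.27% lower. From d2 to d4, Tpm1, Tpm2 and Cnn3 were called higher and Tpm3 lower in Cl19 (9.34% higher and 11.3% lower over all probes). Tpm1 and Tpm2 were called higher in 3c3 (4.33% higher and 4.39% lower over all probes). With the slide as a replicate block, Tpm3 (lower, adjusted p = 0.0408, limma) and Tagln2 (higher, adjusted p = 0.0375, limma) were also called in that 3c3 step, for a count of 4. With the slide as a random block, Tpm4 was also called in the Cl19 step (0.31, adjusted p = 0.0440, limma). From d4 to d6, limma called 0 in Cl19 (3.44% higher and 3.51% lower over all probes) and Cnn3 alone in 3c3 (5.91% higher and 4.58% lower). In that Cl19 step 1 gene, Cnn3, had an unadjusted p under 0.05 by limma, and it was called with the slide as a random block. The methods' t-test also had 1 gene under 0.05 unadjusted. The limma block added Tpm1 to the 3c3 step, for a count of 2.

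The d2 steps in Cl19 rest in part on 1 array. The d2 mean of Tpm2 was 12.45 with the array labelled Cl19 d2 replicate 1 and 13.23 without it. For Tpm1 these means were 13.86 and 14.21, and for Cnn3 15.10 and 15.28. Means of Tpm3 (13.61 in both cases), Tpm4 (13.57 and 13.63) and Tagln2 (13.08 and 12.90) moved less. From d0 to d2 the changes went from 2.69 to 3.47 for Tpm2 without it, from 2.13 to 2.48 for Tpm1, from 0.50 to 0.56 for Tpm4 and from 0.72 to 0.90 for Cnn3, and these 4 genes were still called. Those of Tpm3 (0.17 in both cases) and Tagln2 (-0.18 and -0.36) were not called. Without that array, Tpm2 was the 1 gene still called from d2 to d4 in Cl19. Adjusted p was then 0.0627 for Tpm1, 0.0889 for Tpm3 and 0.144 for Cnn3 (limma). Without Cl19 d4 replicate 3, Cnn3 (adjusted p = 0.101, limma) and Tpm3 lost their calls in that step. Without the slide of 3c3 replicate 3, 1 call was left in 3c3 from d0 to d2, Tpm2 missing the threshold (adjusted p = 0.0741, limma), and 0 from d2 to d4 (0.0712 for Tpm2 and 0.175 for Tpm1).

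Probes within a gene mostly moved together from d0 to d6, with 1 Tpm1 probe ahead of the others. All 4 Tpm1 probes and all 3 Tpm2 probes were called higher in both lines. Of all tested probes, 22.0% were called higher in Cl19 and 19.7% in 3c3. A_44_P475051 of Tpm1 read 7.996, 7.70 and 7.91 at d0 and 13.09, 13.62 and 12.16 at d6 in Cl19. In 3c3 it read 8.47, 7.74 and 8.20, then 12.73, 12.25 and 12.15. It rose by 5.09 in Cl19 (adjusted p = 2.88e-10, limma) and 4.24 in 3c3 (adjusted p = 5.40e-09, limma), compared with 3.37 and 3.14 at the brightest probe. Slide by slide its change exceeded that of the brightest probe on 6 of 6 slides, by 0.93 to 2.34 (mean 1.41 ± 0.55, SD). The exact two-sided sign-flip test over 6 slides gave p = 0.03125, the smallest it allows, and 0.115 after adjustment over 11 probe pairs, so it did not pass. That test gave the same values for Tpm1 A_44_P320620, ahead of the brightest probe on 6 of 6 slides (mean 0.34). It also did for Tpm2 A_43_P10874, behind its brightest probe on every slide (mean -0.44). Which splice forms each probe reads was not determined here. Of the other Tpm2 probes, A_44_P1042783 rose by 6.01 in Cl19 (5.98 in 3c3) and A_43_P10874 by 5.65 (5.23).

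Of the 7 Tpm3 probes, 3 were called lower at d6 in Cl19 (A_44_P121177, A_44_P513058 and A_44_P277834), where 30.3% of all tested probes were called lower. In 3c3, 4 were called lower (the brightest probe, A_44_P134688, A_44_P121177 and A_44_P513058), where 28.6% of all tested probes were. With 75th percentile scaling the counts were 5 and 4. On the unscaled deposited values they were 3 and 1, with adjusted p in 3c3 of 0.0677 for A_44_P134688, 0.0570 for A_44_P121177 and 0.0787 for A_44_P513058 (limma). Without 3c3 d6 replicate 2, A_44_P134688 (0.0833) and A_44_P121177 (0.106) lost their 3c3 calls, as they did without the slide of 3c3 replicate 3 (0.178 and 0.0725). A_44_P134688 also lost it without 3c3 d0 replicate 2 (0.0559), 3c3 d0 replicate 3 (0.0897) or 3c3 d6 replicate 3 (0.0577), and A_44_P121177 without 3c3 d0 replicate 1 (0.0634). In Cl19, A_44_P121177 lost its call without Cl19 d6 replicate 2 (0.0521). The brightest probe and A_44_P134688 were also called in Cl19, for a count of 5, with the slide as a replicate block (0.0399 and 0.0349) and without Cl19 d6 replicate 3 (0.00850 and 0.00353). A_44_P277834 was called in 3c3 without 3c3 d0 replicate 2 (-0.95, adjusted p = 0.00630, limma). A_44_P513058, which the file annotates as a non-muscle tropomyosin, read 8.89, 9.08 and 9.07 at d0 in Cl19, 9.63, 9.60 and 9.47 at d2, 8.41, 8.79 and 8.09 at d4 and 8.06, 7.88 and 8.59 at d6. In 3c3 it read 9.16, 9.25 and 9.19, then 9.55, 9.75 and 9.64, then 9.24, 8.72 and 8.89, then 8.67, 8.17 and 8.54. In both lines d2 lay above d0 and d6 lay below it, with no overlap. The d2 change was 0.56 in Cl19 (adjusted p = 0.0426, limma) and 0.45 in 3c3 (adjusted p = 0.117, limma). The Cl19 call was lost with 75th percentile scaling (0.0506) and without any 1 of its 6 arrays (0.0711 to 0.136; 0.0906 without Cl19 d2 replicate 1). The d6 fall passed in both (-0.84, adjusted p = 0.00107, and -0.74, adjusted p = 0.00352, limma). A_44_P121177 had the same course, with a d2 change of 0.65 in Cl19 (adjusted p = 0.0269, limma) and 0.50 in 3c3 (adjusted p = 0.0947, limma). That Cl19 call was lost with 75th percentile scaling (0.104) and without any 1 of 5 of its 6 arrays, Cl19 d2 replicate 3 being the exception (0.0593 to 0.0734). On the unscaled deposited values the d2 changes of both probes passed in both lines (0.70 to 0.75, highest adjusted p = 0.0185, limma). A_44_P219839 was not well above background on 1 array (3c3 d6 replicate 3, log2 signal 1.73), and that array belongs to the slide with its largest change, -3.46.

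**Figure D2:**
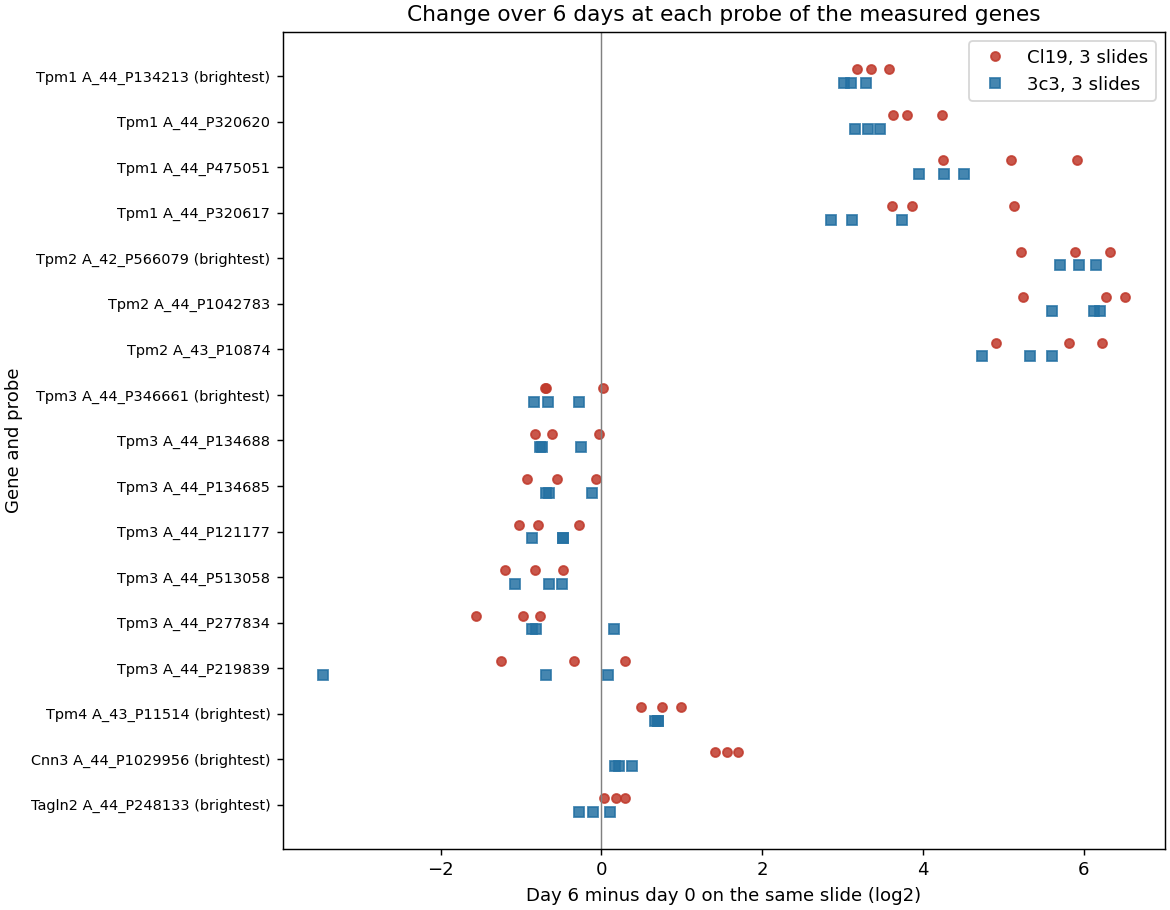
Log2 change from d0 to d6 on the same slide (x axis) for each of 17 probes (y axis), 3 slides of Cl19 as circles and 3 slides of 3c3 as squares. All Tpm1 and Tpm2 probes lie right of 0, Tpm3 probes lie mostly left of it, and circles and squares stand apart for Cnn3 (1.42 to 1.70 against 0.16 to 0.38) and for Tpm1 A_44_P320620 (3.63 to 4.24 against 3.15 to 3.46). The difference between the lines was called for Cnn3 but not for A_44_P320620 (0.58, adjusted p = 0.318, limma).

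Between Prim RNA and d6 cells, the size and even the sign of differences depended on the scaling. With quantile normalisation, 4 of 6 genes were called against Cl19 d6 and the same 4 against 3c3 d6, with Tpm2 and Tagln2 higher and Tpm4 and Cnn3 lower in Prim. Of the tested probes 32.8% were higher and 38.6% lower against Cl19, and 33.4% and 38.1% against 3c3. With no filter on dim probes, 48.6% and 46.7% of all 41012 probes were called in either direction. The median over all tested probes was -0.13 against each line with quantile normalisation, 0.21 with 75th percentile scaling, and -2.17 (Cl19) and -2.09 (3c3) in the unscaled deposited table. Of the probes called against Cl19 d6, 8010 were higher and 9431 lower by quantile, and 1640 higher and 18111 lower in the unscaled table. Both comparisons share the Prim arrays. Markers listed for other cells also gave signal on the Prim arrays, and whether such cells were present was not tested. All 5 fibroblast markers were above background (summed log2 signal 16.0 to 16.1, against 10.6 to 13.9 at d6). Of these, Col1a1 was at 15.99 in Prim, whereas Pdgfra was lower in Prim (9.24) than at d6 (10.41 in Cl19 and 10.48 in 3c3). The skeletal myosin genes Myh1 and Myh2 averaged 11.26 and 10.98 in Prim, with Myod1, Myog and Ckm not well above background, and the skeletal list summed to 12.1 against 4.58 to 5.51 at d6. The endothelial list was at 4.70 to 5.26 in Prim and 5.66 to 7.07 at d6. The blood list was at 9.73 to 9.78 in Prim and 7.20 to 8.07 at d6, and its genes did not move together. Cd14 (9.65 in Prim, 5.80 and 7.03 at d6 in Cl19 and 3c3) and Ptprc (5.11 in Prim) were higher in Prim. Cd68 was lower in Prim (4.69, against 6.75 and 6.87), and Hbb was not above background. As sums, other lists were lower in Prim. The epithelial was at 10.49 to 10.55 (17.75 to 17.98 at d6) and the cardiac at 7.55 to 7.64 (11.23 to 13.93). The undifferentiated and primitive endoderm list was at 10.29 to 10.31 (14.06 to 15.08). Within it, Gata6 was at 10.13 in Prim, against 9.92 in Cl19 and 12.05 in 3c3 at d6. The part of these lists in the Prim differences was not tested.

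Tpm2 was the gene whose Prim difference kept its sign and its call under each scaling. Prim read 17.45 and 17.47, above every d6 array of both lines. The difference was 1.89 ± 0.58 from Cl19 (3.72-fold, adjusted p = 0.00679, limma) and 2.98 ± 0.58 from 3c3 (7.91-fold, adjusted p = 1.32e-04, limma). It was 3.95 and 5.04 with 75th percentile scaling and 1.58 and 2.74 in the unscaled table. The other Tpm2 probes differed from Cl19 by 2.86 and 3.36, and from 3c3 by 4.18 and 4.81.

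Tagln2 read 14.19 and 14.18 in Prim, above every d6 array by quantile normalisation. The difference was 0.75 from Cl19 (adjusted p = 7.66e-04, limma) and 0.66 from 3c3 (adjusted p = 0.00237, limma), and it turned to -0.70 and -0.75 in the unscaled table. Relative to the median of all probes it was 0.88 and 0.78 by quantile and 1.47 and 1.34 by either other scaling. Cnn3 read 14.60 and 14.59. It was lower than in Cl19 d6, at a difference of -1.35 (adjusted p = 1.76e-07, limma; -0.22 and not called with 75th percentile scaling). Against 3c3 d6 it was -0.36 (adjusted p = 0.0429, limma), turning to 0.76 with 75th percentile scaling, and adjusted p was 0.125 with the Prim arrays averaged as 1 sample (limma). That call was also lost without either Prim array (0.119 and 0.131) and without 3c3 d6 replicate 1 (0.153) or replicate 3 (0.0554). Tpm4 read 13.38 and 13.29 and was lower, with differences of -0.48 and -0.55 (adjusted p = 0.00631 and 0.00234, limma), turning to 0.25 and 0.14 with 75th percentile scaling. Without Prim replicate 2 the first of these missed the threshold (0.0542).

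Tpm1 and Tpm3 were not called at their brightest probes. Tpm1 read 15.01 and 15.07 in Prim, within the range of d6 arrays, and differed by -0.06 from Cl19 (95% interval -0.67 to 0.55) and 0.14 from 3c3 (-0.46 to 0.75). With 75th percentile scaling these were 1.12 and 1.32, and in the unscaled table -1.26 and -0.98. Tpm3 read 12.47 on both arrays and differed by -0.51 and -0.50 (adjusted p = 0.0589 and 0.0642, limma), with 0.05 against Cl19 under 75th percentile scaling. In the unscaled table the differences were -2.33 and -2.31 and were called (adjusted p = 3.13e-08 and 3.54e-08, limma). By quantile it was called against Cl19 without Cl19 d6 replicate 2 (0.0183) and against 3c3 without 3c3 d6 replicate 2 (0.0217).

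Probes of 1 gene parted in Prim. Tpm3 A_44_P513058 read 4.87 and 4.66 in Prim, lower than in d6 cells, with differences of -3.41 (Cl19) and -3.69 (3c3). A_44_P121177 read 5.96 and 5.84, with differences of -4.08 and -4.31. The highest adjusted p of these 4 differences was 2.92e-11 (limma), and all stayed lower under both other scalings. A_44_P277834 of the same gene read 10.095 and 10.089, higher by 2.18 and 1.56 (adjusted p = 1.11e-05 and 4.20e-04, limma), turning to -0.19 and -0.75 in the unscaled table. Relative to the brightest Tpm3 probe, a comparison that a shift of a whole array cannot change, A_44_P513058 was at -2.89 and -3.19 by quantile (-3.17 and -3.42 with either other scaling). A_44_P277834 was at 2.69 and 2.06 (2.13 and 1.56). For Tpm1, A_44_P475051 read 11.52 and 11.53 in Prim, with differences of -1.43 from Cl19 and -0.85 from 3c3 (adjusted p = 0.00160 and 0.0424, limma). The second was lost with 75th percentile scaling (-0.55, adjusted p = 0.173, limma), without either Prim array (0.124 and 0.122) and without 3c3 d6 replicate 1 (0.138), replicate 2 (0.0532) or the slide of 3c3 replicate 3 (0.0602). A_44_P320617 read 13.00 and 12.99, higher by 2.16 and 3.11 (adjusted p = 3.43e-05 and 3.28e-07, limma), and by 0.39 and not called against Cl19 in the unscaled table (adjusted p = 0.374, limma). Relative to the brightest Tpm1 probe they were at -1.37 and -0.99, and at 2.22 and 2.97, and kept those signs under both other scalings. Differences between probes were not tested against Prim.

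**Figure D3:**
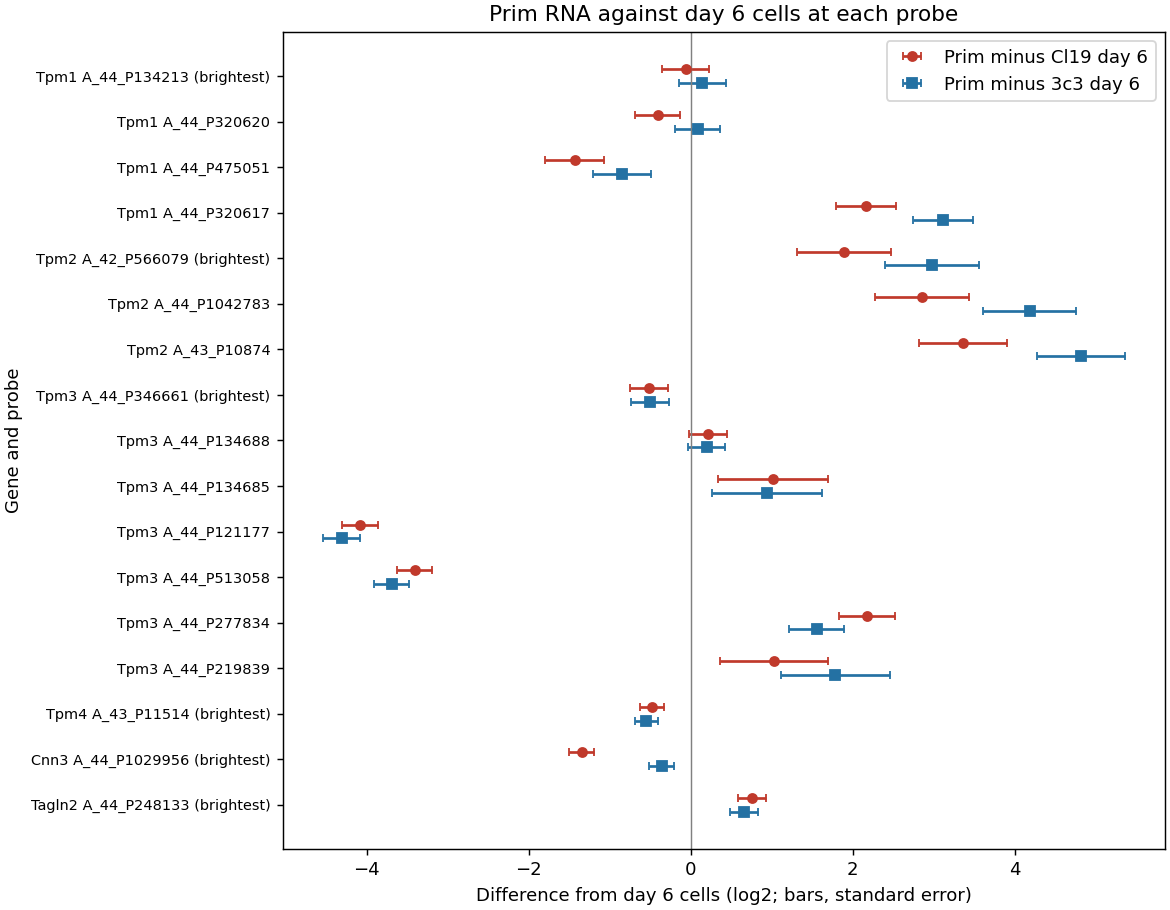
Prim minus d6 cells (x axis, log2, quantile-normalised; bars, standard error of the limma fit with 2 Prim and 3 d6 arrays) for each of 17 probes (y axis), against Cl19 as circles and 3c3 as squares. Tpm2 probes lie to the right, Tpm3 A_44_P121177 and A_44_P513058 below -3, and other Tpm3 and Tpm1 probes on both sides; the sides of Tagln2, Tpm4, A_44_P277834 and the 3c3 value of Cnn3 turn under another scaling, as do Tpm1 A_44_P134213 and A_44_P320620 and Tpm3 A_44_P346661, A_44_P134688, A_44_P134685 and A_44_P219839.

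The nearest relatives of the calponins and Tagln2 moved in both lines. Cnn1, smooth muscle calponin, rose by 3.56 in Cl19 (adjusted p = 3.45e-11, limma) and 2.67 in 3c3 (adjusted p = 2.04e-09, limma). Tagln rose by 6.54 and 5.95 (adjusted p = 1.88e-11 and 8.92e-11, limma), where Tagln2 was not called. Tagln3, the neuronal transgelin, was well above background on 1 of 26 arrays and was not tested. Among genes for filament ends and tropomyosin partners, 14 were tested: at d6 Cl19 had 6 called higher and 4 lower, and 3c3 had 5 and 4 (median changes 0.65 and 0.25). Over all tested probes, as above, 22.0% were called higher and 30.3% lower in Cl19 and 19.7% and 28.6% in 3c3, and these shares also stand behind the counts of the lists that follow. Lmod1, a leiomodin that starts filaments in smooth muscle, was below that detection mark on all d0 arrays. It averaged 5.01 at d6 in Cl19, at least 6.26-fold higher (adjusted p = 3.48e-09, limma), and 4.46 in 3c3, where 2 of 3 arrays measured it, at least 3.47-fold higher (adjusted p = 3.32e-08, limma). For each bound, a d0 array counted at its dimmest well-measured probe or the probe itself, whichever was higher. The adjusted p-values belong to the limma changes of the measured signals, and the bounds themselves were not tested. Lmod2, the striated muscle leiomodin, fell from 7.02 to 2.80 in Cl19 and from 7.81 to 3.24 in 3c3 (adjusted p = 3.07e-08 and 2.11e-08, limma), measured on 2 of 3 d6 arrays in each line.

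Of 9 tested smooth muscle contractile genes, 6 were called higher and none lower at d6 in each line (median 1.74 and 1.61). Desmin (Des), a muscle intermediate filament, rose by 3.52 and 2.32 (adjusted p = 1.79e-05 and 0.00149, limma). Of 16 non-muscle actin cytoskeleton genes, Cl19 had 13 called higher and 1 lower, and 3c3 had 11 called higher (median 1.09 and 0.92). With 75th percentile scaling these were 10 and 1, and 9. Tmsb4x, which binds actin monomers, rose by 3.72 and 3.28 (adjusted p = 1.70e-08 and 1.56e-07, limma). Of 5 tested genes for SRF and its coactivators, 2 were called higher in each line. Myocd, a coactivator named after its values were seen, was the 1 called lower in 3c3 (-1.20, adjusted p = 0.00402, limma), where 0 genes of the list were called lower under either other scaling. In Cl19, 0 were called lower, and 1 with 75th percentile scaling. Mkl1, an actin-sensing SRF coactivator, rose by 1.29 in each (adjusted p = 1.13e-07 and 1.89e-07, limma).

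The CArG box, which SRF binds, was sought on both strands of the RefSeq promoter windows (build GRCr8). It stood in 548 of 33469 windows (1.64%). None of the windows of the 6 measured genes held it (3 windows for Tpm3 and 1 for each other gene), and the 1 window of Cnn2 did. These letters are not in those windows, and nothing follows from that about the factor.

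Over the 24 rMAPC arrays, the genes whose brightest probe ran most like Tpm1 were Tagln and Nppa (Pearson r 0.98 each), among 10666 genes. For Tpm2 they were Smtn and Ppm1j (0.98 each), for Tpm3 Slc25a10 (0.97) and Hmgn1 (0.95), and for Tpm4 Glipr1 and Nppa (0.93 each). For Cnn3 they were Tph1 (0.98) and Rhot2 (0.97), and for Tagln2 Dmrtc1c and Nkiras2 (0.73 each). These arrays share lines, days and slides, so the values describe a shared course and carry no test.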

How the data were processed

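The authors deposited scanner output of 26 arrays (Agilent Feature Extraction 10.1.1.1, per the labels) and a log2 table. Processed intensity (gProcessedSignal) in the scanner files, already background-corrected by that software, was the start. The deposited log2 values equal log2 of that intensity with no scaling between arrays. The methods quantile-normalise it, and so did the main fit, with features of a probe averaged. A probe was tested if 1 group or more had it well above background on all its arrays (24442 of 41012). limma 3.58.1 (R 4.3.3) fitted 26 arrays in 9 groups with 1 shared spread, and p-values were adjusted by Benjamini-Hochberg over all tested probes at 0.05. Fits were tested on simulated data. Members and gene lists were chosen with earlier results of these data known. Named from each list are the related genes and the called genes with the largest rise and fall in both lines, and, per member, the 2 genes of highest correlation. Replicate numbers mark a shared slide (scanner files): deviations of same-numbered arrays correlated above 0.1 in 18 of 18 pairs in 3c3 (lowest 0.20) and 16 of 18 in Cl19 (lowest 0.06). Alternatives were 75th percentile scaling, normexp, the deposited log2 table, other filters, probe means, the slide as a block, fits of 1 line, each array or the high-background slide left out, the methods' t-test and, added after values were seen, Prim averaged. The area method of the study was not run. Well above background were 43.2% to 61.4% of features per array, and 0 gene features were saturated; the number of arrays limits the precision.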

Additional observations from a re-analysis of the deposited data

Results flagged for a closer look

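The d0 to d6 change of Cnn3 differed between the lines, at 1.56 in Cl19 and 0.25 in 3c3 (difference 1.31 ± 0.19 SE, adjusted p = 7.76e-05, limma). The change of Cnn1 also differed between the lines, at 3.56 in Cl19 and 2.67 in 3c3 (difference 0.89 ± 0.27 SE, adjusted p = 0.0244, limma). That difference was 0.78 with 75th percentile scaling and 0.79 on the unscaled deposited values, and not called in either (adjusted p = 0.0833 and 0.0659, limma). The call was also lost without Cl19 d0 replicate 2 (0.0732), Cl19 d6 replicate 1 (0.0641) or replicate 3 (0.0519), 3c3 d0 replicate 3 (0.0666), 3c3 d6 replicate 2 (0.0715) or replicate 3 (0.0516), and without the slide of 3c3 replicate 3 (0.114).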

How the results depend on the processing

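For 66 changes of the 6 genes, 1152 alternative values were computed: 1015 kept direction and side of the threshold, 68 lost the call, 30 gained it and 39 turned sign. For the 30 called changes, 438 of 511 values kept both, 68 lost the call and 5 turned, all 5 against Prim; the causes were not tested. Counts of called genes moved by over 1.5 times as follows. In Cl19, the d2 over d0 count was 2 by the methods' t-test after adjustment (4 in the report). The d4 over d2 count (4) was 2 in a fit of Cl19 alone, 0 by the adjusted t-test, and 1 to 4 leaving out 1 array. The d6 over d4 count (0) was 1 with the slide as a random block and 1 by the unadjusted t-test. In 3c3, the d2 over d0 count (2) was 1 to 2 leaving out 1 array or the slide of replicate 3. The d4 over d2 count (2) was 4 with the slide as a replicate block or a random block, 0 by the adjusted and 4 by the unadjusted t-test, and 0 to 3 with an array or that slide left out. The d6 over d4 count (1) was 0 with 75th percentile scaling, the deposited table, no filter, a floor, probe means and the adjusted t-test, 2 with normexp, the replicate block, the random block and the unadjusted t-test, and 0 with any array or that slide left out. The Prim against 3c3 count (4) was 2 by the t-test, adjusted or not. With the replicate block the d6 over d0 counts were 5 in Cl19 and 4 in 3c3, and the replicate block changed no call of a gene's brightest probe but those given in the report.

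Of the 39 turned values, those outside the Prim comparisons belonged to changes that were not called. With 75th percentile scaling, Tagln2 was -0.17 and Cnn3 -0.19 from d0 to d6 in Cl19 and 3c3 respectively, and Tpm3 was -0.083 (Cl19) and -0.21 (3c3) from d0 to d2, the last also -0.017 with normexp. From d4 to d6 in Cl19, Tpm3 was -0.10 with probe means and Tpm4 0.036 in the deposited table. The line difference of Tpm2 was 0.041 with normexp and 0.11 with probe means. Against Prim with 75th percentile scaling, Cl19 gave 1.12 for Tpm1, 0.047 for Tpm3 and 0.25 for Tpm4, and 3c3 gave 0.14 for Tpm4 and 0.76 for Cnn3. Probe means gave 0.0655 for Tpm1 against Cl19. In the deposited table Tagln2 was -0.70 (Cl19) and -0.75 (3c3), and Tpm1 was -0.98 against 3c3. Leaving out 1 array or slide gave these ranges: from d4 to d6 in Cl19, Tpm2 -0.13 to 0.34, Tpm3 -0.21 to 0.21 and Tpm4 -0.16 to 0.033. In 3c3 they were -0.23 to 0.0504 for Tagln2 from d0 to d6, -0.052 to 0.069 for Tpm3 from d0 to d2 and -0.23 to 0.17 for Tpm3 from d4 to d6. For line differences they were -0.52 to 0.38 (Tpm2), -0.11 to 0.31 (Tpm3) and -0.054 to 0.15 (Tpm4), and for Tpm1 in Prim against Cl19 -0.21 to 0.11.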
